A study of Mus musculus with 2 samples.

Results

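The genes described here are 10 genes linked to glutathione, chosen by name and with earlier results of these data known. They are the glutathione peroxidases Gpx1, Gpx3, Gpx4, Gpx7 and Gpx8, the glutathione transferases Gsta4, Gstm1, Gstm2 and Gstp1, and Chac1. Chac1 encodes an enzyme that breaks glutathione down. Of these 10, 9 had a value among the 10982 genes of the deposited table, and Gpx7 had none. RNA was sequenced from heart cultures labelled as neonatal mouse cardiomyocytes, in 2 libraries. The control culture had been transfected with a negative control. The other had been transfected with an antagomir, a modified antisense oligonucleotide, against FERPIR, a piRNA (one of the short RNAs that guide PIWI proteins). A treatment label reads PBS for both, and no strain, exact age, dose or time after transfection is stated in the labels. The question was how gene expression differed after FERPIR knockdown. The table used here has no row for FERPIR, and its knockdown could not be checked.

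Glutathione is the main small thiol of the cell. Several of the peroxidases spend it to reduce hydrogen peroxide and lipid peroxides. Transferases couple it to reactive compounds such as the aldehydes formed from oxidized lipids. Gamma-glutamyl cyclotransferases such as CHAC1 degrade it. GPX4 reduces peroxides within membrane phospholipids, and its loss leads to ferroptosis, an iron-dependent cell death that has been studied in heart muscle injury. Chac1 is a known target of ATF4, the transcription factor of the integrated stress response.

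Values were in FPKM, which corrects fragment numbers for transcript length and library size, so levels of different genes can be set side by side. The library sums were 295404 FPKM for the control and 312806 FPKM for the antagomir. The numbers of reads are unknown, and neither counting intervals nor detection limits could be given. Each group was 1 library, so no test or replicate error was possible and every difference below is a difference between these 2 libraries. Differences are given as log2 ratios of FPKM + 1, antagomir over control, and folds are on the same scale. Of 14 markers of cardiomyocytes 1 had a value, the cardiac troponin gene Tnnt2. It had 1.48 and 8.19 FPKM in control and antagomir, 3.71-fold higher. Of 10 fibroblast markers 7 had values, which summed to 1203 and 1071 FPKM, and of 5 smooth muscle markers 3. Of these 3, Acta2 had 1304 and 845 FPKM, 1.54-fold lower, whereas Tagln, with 18.2 and 37.8 FPKM, was 2.02-fold higher and Cnn1, with 1.79 and 2.91 FPKM, 1.40-fold higher. The fibroblast markers lay on both sides as well, but by unequal amounts. In the antagomir library Ddr2 was 3.56-fold, Col1a1 2.36-fold, Col1a2 1.96-fold, Col3a1 1.44-fold and Dcn 1.33-fold lower. Vim was 1.11-fold and Pdgfra 1.21-fold higher, both under 1.5-fold. The values therefore do not bear out the label, although a missing value does not show that a gene was low. No marker of endothelial cells had a value among 6, and of 6 macrophage markers only Lyz2 had one, with 3.28 and 4.44 FPKM.

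In the glutathione genes, 4 of the 9 with values had antagomir levels at least 1.5-fold below the control, beside 13.4% of the 10201 genes that reached 1 FPKM in either library. None was at least 1.5-fold higher, beside 10.8% of all genes. The 9 genes were chosen with earlier results of these data known, so these counts are no test of an excess. Chac1, Gpx3 and Gsta4 were at least 2-fold lower, beside 3.79% of all genes, and none was 2-fold higher, beside 2.88%. With ratios centred on the median of all genes Gsta4, at a log2 ratio of -0.97, came under 2-fold, which left 2 genes. Gstm1 was the fourth at 1.5-fold. The other 5, Gpx1, Gpx4, Gpx8, Gstm2 and Gstp1, lay between the limits. The median log2 ratio of the 9 genes was -0.54, beside -0.05 over all 10201 genes, whose SD across genes was 0.55. Summed FPKM of the 9 genes came to 1736 in control cells and 1435 after the antagomir. In bulk RNA, fewer cells of a type and less RNA per cell cannot be told apart. The fibroblast and smooth muscle markers above differed between the libraries in both directions. The larger differences of the fibroblast markers were on the lower side, whereas the cardiomyocyte marker Tnnt2 was 3.71-fold higher. The part of these markers in the differences of the 9 genes was not tested.

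**Figure D1:**
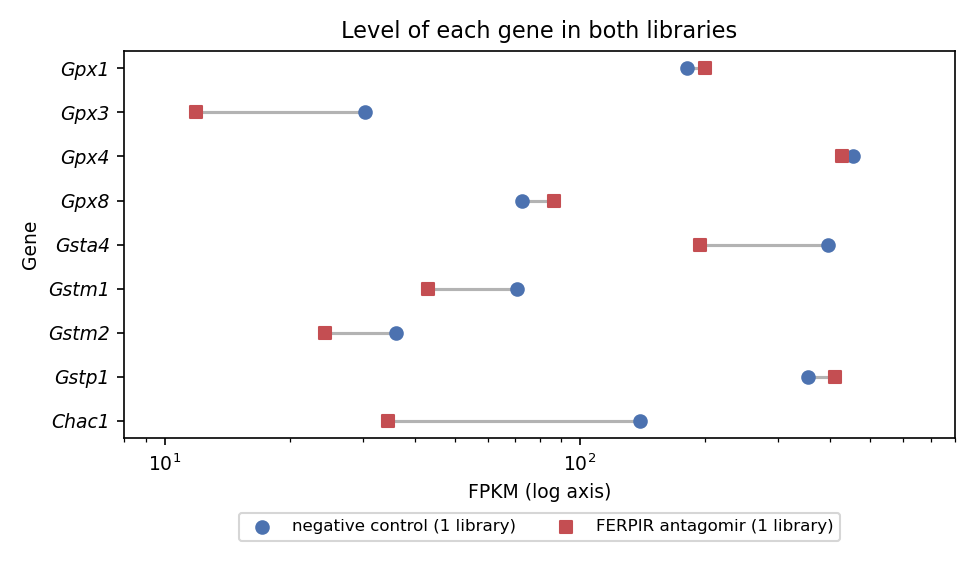
FPKM of each of the 9 genes with a value (log axis) in the negative control library (circles) and the FERPIR antagomir library (squares), 1 library each and so without error bars. Chac1, Gpx3, Gsta4, Gstm1 and Gstm2 have their squares well to the left of their circles, whereas the symbols of Gpx1, Gpx4, Gpx8 and Gstp1 lie close together.

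The peroxidases fall into those with selenocysteine at the active site and those with cysteine. Selenocysteine is read from a UGA codon that elsewhere ends translation, which makes these enzymes depend on selenium. The stretches around the active-site codon are printed because this codon separates the family. They were read from the coding sequences of GENCODE release M21 on build GRCm38, 5′ to 3′, with the active-site codon in capitals.
Gpx1: aatgtcgcgtctctcTGAggcaccacg
Gpx3: aacgtagccagctacTGAggtctgaca
Gpx4: aacgtggcctcgcaaTGAggcaaaact
Gpx7: aacgtagctagcgaaTGTggcttcaca
Gpx8: aacgtggctagtgacTGCcgcttcaca
Gpx1, Gpx3 and Gpx4 carry TGA, the DNA form of the selenocysteine codon, at codons 47, 73 and 129 counted from the start codon of the longest coding sequence. Gpx7 and Gpx8 carry a cysteine codon at codons 56 and 79. The annotation places the selenocysteine codons in the coding exons of Gpx1 at chr9:108339451-108339453, of Gpx3 at chr11:54907256-54907258 and of Gpx4 at chr10:80054737-80054739.

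Gpx4 had 455 FPKM in control cells and 427 FPKM after the antagomir. Its log2 ratio was -0.09, and 46.3% of all genes had a lower one. Across genes the ratio was lower for longer transcripts (Spearman's rho -0.30 over genes, which are not replicates). With its trend over length and GC content removed, the log2 ratio of Gpx4 was -0.56, still short of 1.5-fold. Of the 50-base windows of its longest coding transcript, 61.7% also occur in transcripts of other annotated genes, chiefly the pseudogene Gpx4-ps2, so how the authors' counting split such reads can move its value.

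Gpx1, the peroxidase of the cytosol and mitochondria for hydrogen peroxide, had 181 and 199.9 FPKM in control and antagomir. Its log2 ratio of 0.14 turned to -0.24 with the length and GC trend removed. Gpx8, which lies in the membrane of the endoplasmic reticulum and takes up peroxide formed during protein folding, had 72.6 and 86.7 FPKM. Its log2 ratio of 0.25 turned to -0.05 with that trend removed. For both genes the libraries differed by less than 1.5-fold under every scaling that was tried, and no direction can be given.

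Gpx3, the secreted peroxidase found in plasma, differed most within the family. It had 30.4 FPKM in control cells and 11.9 FPKM after the antagomir. The antagomir value was 2.44-fold lower, a log2 ratio of -1.28, and 1.95% of all genes had a lower ratio. Gpx3 made up 4.12% of the summed FPKM of the 4 peroxidases in the control and 1.64% of it after the antagomir. Gpx4 made up 61.5% and 58.9% of the same sums. The 4 summed to 739 and 726 FPKM, so the family total differed little while Gpx3 differed. Of the 3 selenocysteine peroxidases, Gpx3 alone was past 1.5-fold. Gpx3 lies at chr11:54902453-54910377 on GRCm38, on the forward strand, and none of its exons overlaps another gene.

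Among the transferases, Gsta4 of the alpha class conjugates hydroxynonenal, an aldehyde from peroxidized lipids. Its level was 396 FPKM in control cells against 194 FPKM after the antagomir. This is 2.03-fold lower, a log2 ratio of -1.02. No 50-base window of its transcript was shared with another gene, and the gene lies at chr9:78182774-78209349. Of 4 alpha class genes searched for, 3 had values, and all 3 were lower in the antagomir library. Gsta1 had 6.41 and 2.02 FPKM, 2.46-fold lower, and Gsta2 had 2.59 and 1.45 FPKM, with a log2 ratio of -0.55 that passed 1.5-fold under 5 of 6 other settings. The pair is uncertain, since 89.7% of the windows of Gsta1 and 64.2% of those of Gsta2 occur in other genes, largely in each other and in predicted copies.

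Gstm1 and Gstm2 belong to the mu class, whose genes form a cluster on chromosome 3. Gstm1 had 70.4 FPKM in control cells and 43.1 FPKM after the antagomir, 1.62-fold lower. Gstm2 had 36.0 and 24.4 FPKM, 1.46-fold lower. It passed 1.5-fold when values were rescaled to TPM or corrected for the length and GC trend. It also passed after rescaling without 3 gene families (mitochondrially encoded, ribosomal protein and hemoglobin genes). Gstm1 and Gstm2 lie 25801 bases apart on the reverse strand, Gstm2 at chr3:107981702-107986453 and Gstm1 at chr3:108012255-108017973. Of 7 mu class genes, 4 had values. Gstm7 was on the same side as these genes, with 2.13 and 1.17 FPKM and a log2 ratio of -0.53, and Gstm5 on the other, with 31.9 and 43.5 FPKM and a log2 ratio of 0.44. Gstm1 shares 23.1% of its windows with other genes and Gstm2 9.36%, among them mu class genes and pseudogenes.

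Gstp1, the main pi class transferase, stood at 355 FPKM in control cells and 413 FPKM after the antagomir. Its log2 ratio was 0.22, and -0.26 with the length and GC trend removed. Gstp1 shares 62.3% of its windows with other genes, mainly its neighbour Gstp2, which had 25.9 and 27.0 FPKM. The promoter of Gstp1 is shown because a stretch resembling the antioxidant response element was seen in it. NRF2 acts on antioxidant genes through this element, but the stretch does not match its common core, TGACNNNGC. These are the 100 bases before its start site, chr19:4037913-4038012, reverse strand, from RefSeq on GRCm38.p6. Capitals mark the match to TGAGTCAGC, a motif chosen after this sequence was read, so its presence here was given by that choice.
Gstp1: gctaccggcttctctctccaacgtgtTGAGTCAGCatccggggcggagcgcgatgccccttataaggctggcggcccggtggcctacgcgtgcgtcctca
TGAGTCAGC or its reverse complement was present in 0.414% of 32851 mouse promoter windows of 300 bases, and among the windows of the 10 genes in that of Gstp1 alone. The common core of the antioxidant response element, TGACNNNGC, was in 12.4% of all windows, on either strand. A longer form of the element that the core covers was in 0.155%. Neither was in the 13 windows of 9 genes (Gsta4 had no entry). A match is a description of the letters and not of binding.

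Taken over 6 classes named in the gene nomenclature, 16 transferases of 22 had values. Of these 16, 4 were at least 1.5-fold lower, beside 13.4% of all genes, and 3 at least 1.5-fold higher, beside 10.8%. This balance depended on the scaling. As TPM 7 were lower and 2 higher, as with the length and GC trend removed. In both, Gsta2, Gstm2 and Gstm7 passed 1.5-fold and Mgst3 did not. Without the 3 families 7 were lower and 3 higher, and with pseudocounts of 0.1 or 0.01 the counts were 6 and 5. Counts over all genes moved as well. Those at least 1.5-fold lower numbered 1364 as reported, 2037 as TPM, 1947 without the 3 families and 1345 with the trend removed. Those at least 1.5-fold higher numbered 1104, 1071, 1176 and 798. With pseudocounts of 0.1 and 0.01, 1782 and 1837 were lower and 1440 and 1482 higher. Summed FPKM of the 16 transferases came to 1206 in control cells and 968 after the antagomir. Gsta4 made up 32.9% of the control sum and 20.1% of the antagomir sum, while Gstp1 made up 29.4% and 42.6%. Gsta4 and Gstp1 were close in the control, where Gsta4 was 1.12 times Gstp1, and Gstp1 was well above Gsta4 after the antagomir. Gsto1 of the omega class, which also reduces dehydroascorbate, had 232 and 139.7 FPKM, 1.65-fold lower. Its neighbour Gsto2, 754 bases away on chromosome 19, was 2.07-fold higher, from 3.39 to 8.11 FPKM. All 3 microsomal transferases had log2 ratios above 0 under every scaling, with Mgst3 at 37.1 and 58.9 FPKM and Mgst2 at 1.47 and 3.22 FPKM past 1.5-fold. Mgst3 came under 1.5-fold as TPM and with the length and GC trend removed.

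Chac1, the cyclotransferase that cleaves glutathione to pyroglutamate and cysteinylglycine, had the largest difference of the 9 genes. It had 139.8 FPKM in control cells and 34.6 FPKM after the antagomir, 3.96-fold lower. The log2 ratio was -1.98, and 0.304% of all genes had a lower one. By level Chac1 held place 5 of the 9 genes in the control and place 7 after the antagomir. Over 6 other scalings and pseudocounts its log2 ratio ranged from -2.22 to -1.94. The gene lies at chr2:119351229-119354381 on the forward strand. None of its exons overlaps another gene and none of its windows is shared. Its paralog Chac2, which is known as a slower enzyme of the same reaction, was on the other side, with 9.97 FPKM in control cells and 17.2 FPKM after the antagomir. Chac2 was 1.66-fold higher, but its log2 ratio came to 0.48, under 1.5-fold, with the length and GC trend removed.

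The 250 bases before the start site of Chac1, chr2:119350992-119351241, are printed because ATF4 is known to act through composite sites of the type TGATGCAA and because Chac1 is a known target of ATF4. They come from RefSeq on GRCm38.p6, forward strand, and capitals mark TGATGCAA (here on the reverse strand, as TTGCATCA) and CCAAT boxes on either strand (CCAAT or ATTGG).
Chac1: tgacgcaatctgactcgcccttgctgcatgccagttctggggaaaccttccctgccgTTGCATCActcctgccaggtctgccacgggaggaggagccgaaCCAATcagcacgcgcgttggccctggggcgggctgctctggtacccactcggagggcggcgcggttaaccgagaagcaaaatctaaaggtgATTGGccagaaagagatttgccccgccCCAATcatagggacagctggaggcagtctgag
The TTGCATCA match begins 193 bases before the start site. TGATGCAA or its reverse complement was in 0.895% of the 32851 promoter windows, and among the 13 windows of 9 of the 10 genes only in that of Chac1. CCAAT on either strand was in 37.4% of all windows and in 8 of the 13, belonging to Chac1, Gpx3, Gpx4, Gstm1 and Gstm2. Windows of Gpx4 overlap and hold some of the same matches, so the windows are not independent. TATAAA was in 13.6% of all windows and in 1 of the 13, that of Gstm1, 30 bases before one of its start sites. TGACGTCA, the cAMP response element, was in 1.79% of all windows and in none of the 13.

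**Figure D2:**
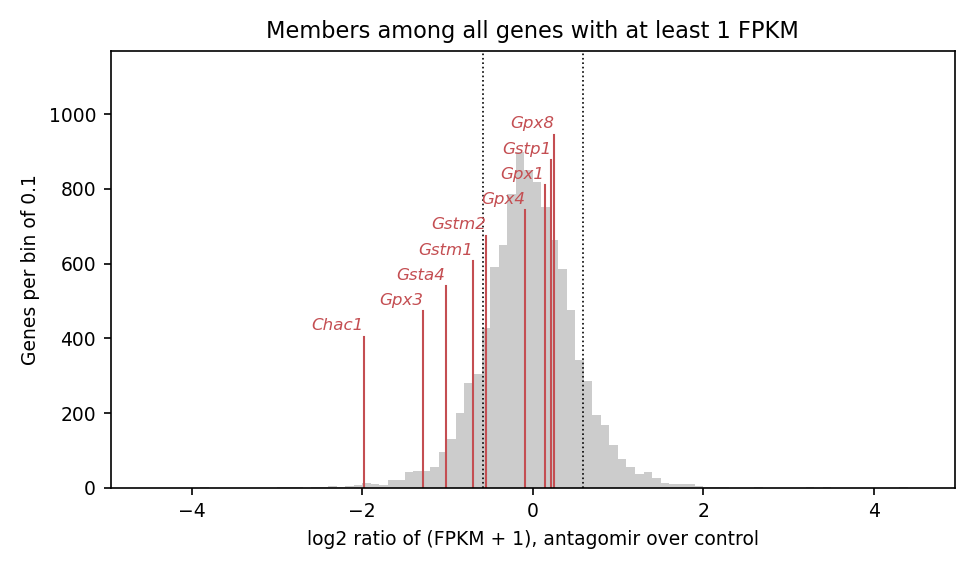
Histogram of the log2 ratio of FPKM + 1, antagomir over control, for the 10201 genes with at least 1 FPKM in either library, in bins of 0.1, with the 9 genes marked by lines whose heights only separate the names. Dotted lines mark 1.5-fold; Chac1, Gpx3, Gsta4 and Gstm1 lie to the left of them, and no line lies to the right.

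The genes with the values most like those of Chac1 were sought by distance over the 2 libraries, on log2 of FPKM + 1, among 6592 genes reaching 5 FPKM. They were Herpud1 (distance 0.33), which takes part in degradation at the endoplasmic reticulum and had 176 and 33.4 FPKM, then F3 (0.46), which encodes tissue factor, and Grina (0.47). For Gpx4 they were the ribosomal protein genes Rpsa (0.17) and Rpl6 (0.20) and, between them, the selenoprotein gene Selenow (0.17), with 452 and 380.5 FPKM. With 2 libraries this likeness amounts to a similar level and ratio.

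Of 9 ATF4-related genes listed beside Chac1, 5 were lower by at least 1.5-fold after the antagomir and 1, Ddit4, was higher at 1.53-fold. The other 3, Atf4, Asns and Cebpb, were under 1.5-fold. Of all genes, 13.4% were at least 1.5-fold lower and 10.8% at least 1.5-fold higher. With the length and GC trend removed, Atf4 and Cebpb passed as well, which made 7 lower. The median log2 ratio of the 9 genes was -0.86. Atf3, a stress-induced transcription factor gene, had 175.5 and 22.5 FPKM, 7.52-fold lower. Ddit3, which encodes CHOP, and Sesn2 were 5.16-fold and 2.48-fold lower. However, exons of Ddit3 overlap those of a second annotated entry of the same symbol, of Gm4189 and of the protein-coding gene Mars. Nupr1 was 2.21-fold and Trib3 1.81-fold lower. The level of Atf4 itself was 563 FPKM in control cells and 406 FPKM after the antagomir. Its log2 ratio was -0.47, or -0.61 with that trend removed. Asns, the asparagine synthetase gene, had 183 and 134 FPKM. Ddit4 was under 1.5-fold after rescaling to TPM, after rescaling without the 3 families and with the length and GC trend removed.

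Genes that supply and reduce glutathione were on the whole less different than Chac1. Of 11 with values, 3 were at least 1.5-fold lower, beside 13.4% of all genes, and none was higher, beside 10.8%. The median log2 ratio of the 11 was -0.20. Gclc, the catalytic subunit of the ligase that limits glutathione synthesis, had 20.5 and 14.5 FPKM, a log2 ratio of -0.47. Its modifier subunit gene Gclm had 8.01 and 7.58 FPKM. The synthetase gene Gss had 8.73 and 9.49 FPKM and the reductase gene Gsr 11.3 and 13.4 FPKM. The 3 lower genes were Cth, Slc3a2 and Slc7a11. Cth, which makes cysteine from cystathionine, had 92.2 and 41.3 FPKM, 2.20-fold lower. Slc3a2 and Slc7a11 encode the 2 chains of the cystine transporter, and were 2.59-fold and 1.68-fold lower. Slc3a2 had 176 and 67.5 FPKM, far above Slc7a11. Slc7a11 had low levels, 1.64 and 0.57 FPKM, and came just under 1.5-fold under 1 of 6 other settings, with the length and GC trend removed (a log2 ratio of -0.58).

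In the list for glutathione breakdown and export, 9 genes reached 1 FPKM. Chac2 was at least 1.5-fold higher, beside 10.8% of all genes, and 2 genes were lower, beside 13.4%. Abcc1 made 3 lower under 4 of 6 other settings, and Ggct made 2 higher with a pseudocount of 0.01. Anpep, an aminopeptidase of the cell surface that can cleave cysteinylglycine, had 13.4 and 5.34 FPKM, 2.27-fold lower. Abcc4, an exporter of conjugates, had 6.02 and 1.72 FPKM, 2.58-fold lower. Glutaredoxins, glyoxalases and related proteins numbered 10, and their log2 ratios had a median of 0.25. Of these, 4 were at least 1.5-fold higher (Glrx, Glrx5, Glo1 and Clic1), beside 10.8% of all genes. Clic4 was lower, beside 13.4%. Rescaled to TPM, Glo1 and Clic1 were under 1.5-fold, which left 2 genes higher. Clic1 was also under 1.5-fold without the 3 families and with the length and GC trend removed, which left 3 higher in each. Hagh made 2 lower as TPM and with that trend removed. Glo1, which with glutathione removes methylglyoxal, had 112 and 177 FPKM, 1.58-fold higher, but it overlaps exons of other annotated transcripts.

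**Figure D3:**
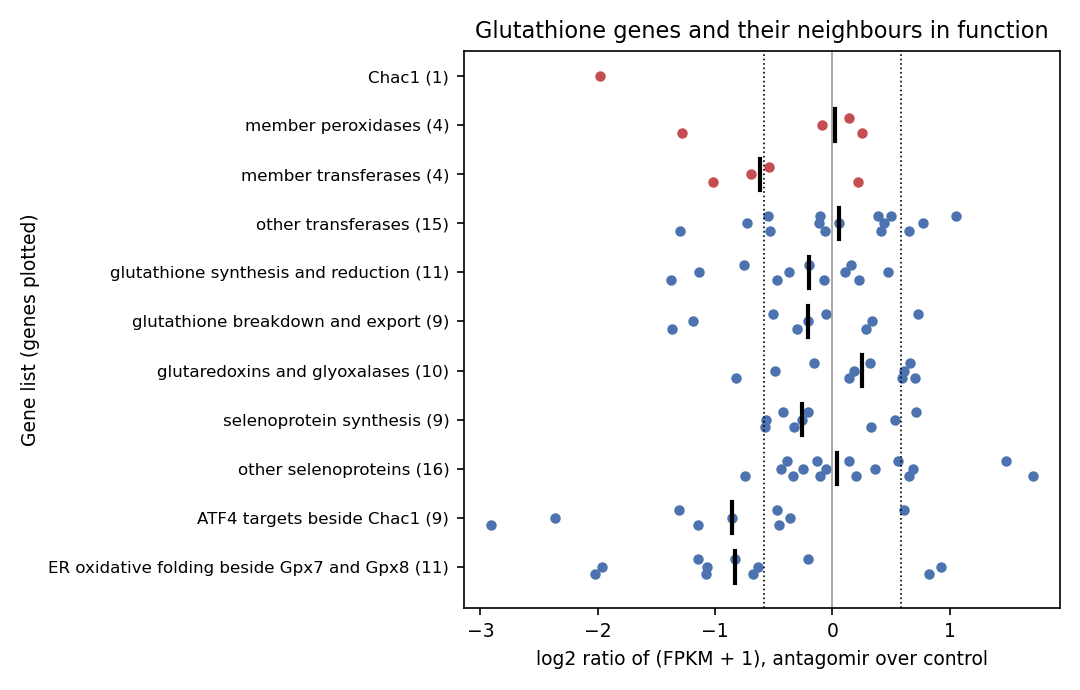
Log2 ratio of FPKM + 1, antagomir over control, of each gene reaching 1 FPKM in the lists of glutathione genes and of their neighbours in function, with the number of genes plotted in brackets. Points are genes, black bars list medians, red points the 9 genes described here and dotted lines 1.5-fold; the ATF4 and oxidative folding lists have medians of -0.86 and -0.83.

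Other selenoprotein genes lay on both sides of 0. Of the 16 other selenoprotein genes with values, 4 were at least 1.5-fold higher, Selenoh, Selenom, Selenoi and Msrb1, beside 10.8% of all genes. Selenon alone was lower, beside 13.4%, joined by Selenow with the length and GC trend removed. Msrb1 was under 1.5-fold as TPM and with the length and GC trend removed. The median log2 ratio of the 16 genes was 0.04, turning to -0.04 at the lowest under other scalings. Selenoh, a nuclear selenoprotein, had 58.4 and 193 FPKM, 3.26-fold higher, and Selenom, of the endoplasmic reticulum, had 29.0 and 82.8 FPKM, 2.79-fold higher. Txnrd1, the cytosolic thioredoxin reductase gene, had 61.6 and 46.8 FPKM. Of 9 genes of selenoprotein synthesis reaching 1 FPKM, 1 was at least 1.5-fold higher, beside 10.8% of all genes. This was Pstk, at 0.99 and 2.27 FPKM. None was at least 1.5-fold lower, beside 13.4%, but Secisbp2l and Sepsecs were 1.49-fold and 1.48-fold lower. Both passed 1.5-fold under 4 of 6 other settings, pseudocounts of 0.1 and 0.01, TPM and scaling without the 3 families. Trnau1ap was a second higher gene with ratios centred on the median. Secisbp2, which binds the element that recodes UGA, had 3.99 and 3.33 FPKM.

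Gpx8 is set here beside genes of oxidative folding in the endoplasmic reticulum. Of 11 such genes, 8 were lower by at least 1.5-fold after the antagomir, beside 13.4% of all genes, and 2 higher, beside 10.8%. The list had a median log2 ratio of -0.83, while Gpx8 had 0.25, which changes sign as given above. Ero1l, the oxidase whose peroxide GPX8 can consume, had 186 and 45.1 FPKM, 4.06-fold lower. The disulfide isomerase gene Pdia4 was 3.91-fold lower and P4hb 1.55-fold lower, a value just under 1.5-fold with log2 ratios centred on the median. Prdx4, a peroxiredoxin of the same compartment, was one of the 2 higher genes, at 58.6 and 112 FPKM. The other was Txndc5, at 29.8 and 53.4 FPKM. These lists were chosen with earlier results of these data known, and the difference between Gpx8 and the list was not tested.

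**Figure D4:**
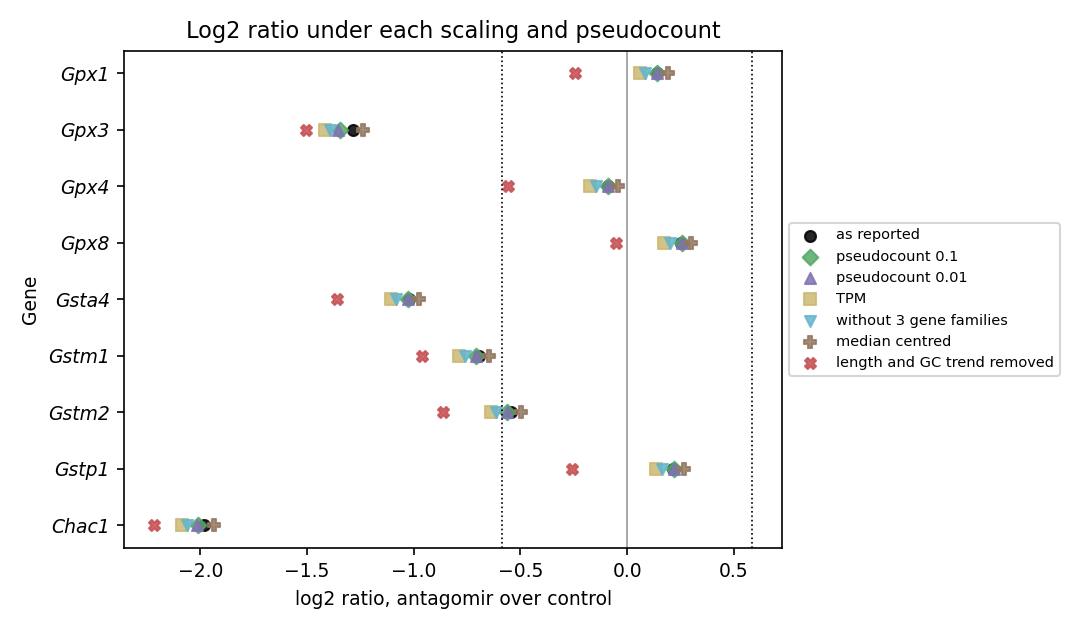
Log2 ratio, antagomir over control, of the 9 genes as reported and under 6 other settings. These were pseudocounts of 0.1 and 0.01, TPM, scaling without 3 gene families, centring on the median, and removal of the length and GC trend. Dotted lines mark 1.5-fold; Gpx1, Gpx8 and Gstp1 cross 0 with the trend removed, and Chac1, Gpx3, Gsta4 and Gstm1 stay below the lower line in all 7.

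Several neighbours in the order of levels were close. Control FPKM spanned 14.9-fold from Gpx3 to Gpx4, and antagomir FPKM 35.9-fold between the same genes. In the control Gpx4 was 1.15 times Gsta4 and Gsta4 1.12 times Gstp1, and Gpx8 was 1.03 times Gstm1. In the antagomir library Gpx4 was 1.03 times Gstp1 and Gpx1 1.03 times Gsta4. Without replicates, neighbours this close cannot be ranked. All 9 genes were well expressed: even Gpx3 had more FPKM in the control than 82.7% of all genes, and Gpx4 more than 99.3%.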

How the data were processed

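The authors deposited gene-level FPKM for 10992 protein-coding rows, in each of which the higher value was above 0.5. Per the submitters' processing notes, cutadapt, HISAT2 and StringTie 1.3.3 were used on GRCm38. Annotation release, settings and strand use are not stated there. No whole-read steps were found in low values, so depth is unknown. Per the labels, libraries were made from polyadenylated RNA with a stranded kit. Groups came from sample titles.

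Values of 10 repeated symbols were summed, which left 10982 genes. Log2 ratios used a pseudocount of 1, which understates differences of low genes, and limits of 1.5-fold and 2-fold were applied to 10201 genes reaching 1 FPKM. With 1 library per group no test was made. Length, GC, exon overlaps and shared 50-base windows came from GENCODE M21, which held 10982 of the 10992 identifiers. Length and GC were those of the longest transcript, and their trend was a quadratic fit. Promoters of 9 of the 10 genes matched by symbol. The rule named the 10 genes, list genes past 1.5-fold, the most abundant gene of each list, the 3 nearest genes by likeness and 12 fixed genes; not all are printed. Outside it, chosen after their values were seen, are Gsta2, Gstm5, Gstm7, Asns, Cebpb, Hagh, Txnrd1, Abcc1, Ggct, Selenow, Trnau1ap, Sepsecs, Secisbp2, Secisbp2l and the single markers. Members and lists were chosen with earlier results of these data known. Python 3.11.15, pandas 2.3.3, numpy 2.4.6 and matplotlib 3.10.9 were used, and scripts were tested on simulated data.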

Additional observations from a re-analysis of the deposited data

How the results depend on the processing

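Of 54 recomputed log2 ratios of the 9 genes, 51 kept their side of 1.5-fold. The other 3 were of Gstm2, at -0.64 as TPM, -0.61 after scaling that left out 3 families (mitochondrially encoded, ribosomal protein and hemoglobin genes), and -0.86 with the length and GC trend removed. Member counts and shares of FPKM stayed within 1.5 times of the reported value in these settings, and no value past 1.5-fold changed sign. The median log2 ratio of the 9 genes, -0.54 as reported, was -0.50 with ratios centred on all genes, -0.86 with the trend removed and -1.02 without the genes that share sequence with another gene. Gsta4 came under 2-fold, at -0.97, with ratios centred on all genes. Genes at least 2-fold higher and lower numbered 294 and 387 as reported. With a pseudocount of 0.1 they were 492 and 635, and with 0.01 they were 524 and 676. Those at least 2-fold lower were 692 as TPM and 672 without the 3 families, and those at least 2-fold higher were 170 with the trend removed. Genes at least 1.5-fold lower numbered 1364 as reported, and from 1183 with ratios centred to 2037 as TPM over 6 other settings. Those at least 1.5-fold higher numbered 1104, and from 798 with the trend removed to 1482 with a pseudocount of 0.01. The cause was not tested. No paired analysis was possible because each group had 1 library, and unknown depth limits all values, most of all those near 1 FPKM.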
